A study of Mus musculus with 6 samples.

Results

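The vesicular glutamate transporters form a family of 3 genes, Slc17a6, Slc17a7 and Slc17a8, and were chosen by name as markers of sensory afferent class. Every probe set whose platform annotation carried one of these symbols was taken, and each gene was led by its brightest probe set on average, in log2(signal + 32). Slc17a6 had 2 probe sets and Slc17a7 had 1, so that 2 of the 3 genes were measured, by 3 of the 45037 probe sets of the arrays. No probe set used here carried the symbol Slc17a8, and that gene was not analysed here. Mouse dorsal root ganglion neurons were pooled and their RNA read on 6 Affymetrix expression arrays, 1 for each of 3 title codes in 2 size classes, called big and medium to small. The L3-B pools were controls of 50 neurons, while pools of L3-S and of L6-R had 20 neurons each that carried DiI, a dye taken up by axons and transported back to the cell body. The sources used here do not give what the codes stand for, where DiI was placed, or the strain, age and number of animals. Each array is 1 pool, and the L3-B arrays differ from the others in labelling and in the number of neurons as well as in code.

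Glutamate is the fast transmitter of primary sensory neurons, and these transporters load it into synaptic vesicles, driven by the proton gradient that the vesicular proton pump builds. In rodent dorsal root ganglia, Slc17a6 (VGLUT2) is found across most sensory neurons, including nociceptors. Slc17a7 (VGLUT1) marks chiefly large myelinated afferents, such as the spindle afferents that also make parvalbumin. Slc17a8 (VGLUT3) is found in a subset of unmyelinated low-threshold mechanoreceptors. Slc17a6 and Slc17a7 lie on mouse chromosome 7 and Slc17a8 on chromosome 10.

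The deposited signals had been scaled alike, with a trimmed mean of 150 on every array. Signals under 32 made up 55.2% to 59.5% of an array and lie near the background of such arrays. All 11 listed genes of dorsal root ganglion neuron identity were above 32 on every array. The ratio of 3' to 5' Actb control signal, a measure that tends to be larger for less intact RNA, ran from 3.73 to 13.9.

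Slc17a6 was strongly detected in all pools by its leading probe set, at a nearly even level. Its signals in the big and the medium to small array were 2434 and 2694 (L3-B), 1966 and 2074 (L3-S) and 1887 and 1987 (L6-R). The L3-B arrays were the highest, and the 4 DiI arrays lay below them. The highest array was 1.43-fold above the lowest. In every code the medium to small array stood slightly above the big one, by 0.14, 0.08 and 0.07 log2 in L3-B, L3-S and L6-R. The widest step between neighbours in the order of the 6 arrays was 0.228 log2, between L3-B big and L3-S medium to small. That step slightly exceeded the moderated residual standard deviation of the fit (0.217 log2), and the other 4 steps were smaller than it. This value is drawn toward the spread of all tested genes and is not the residual spread of Slc17a6 alone.

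**Figure D1:**
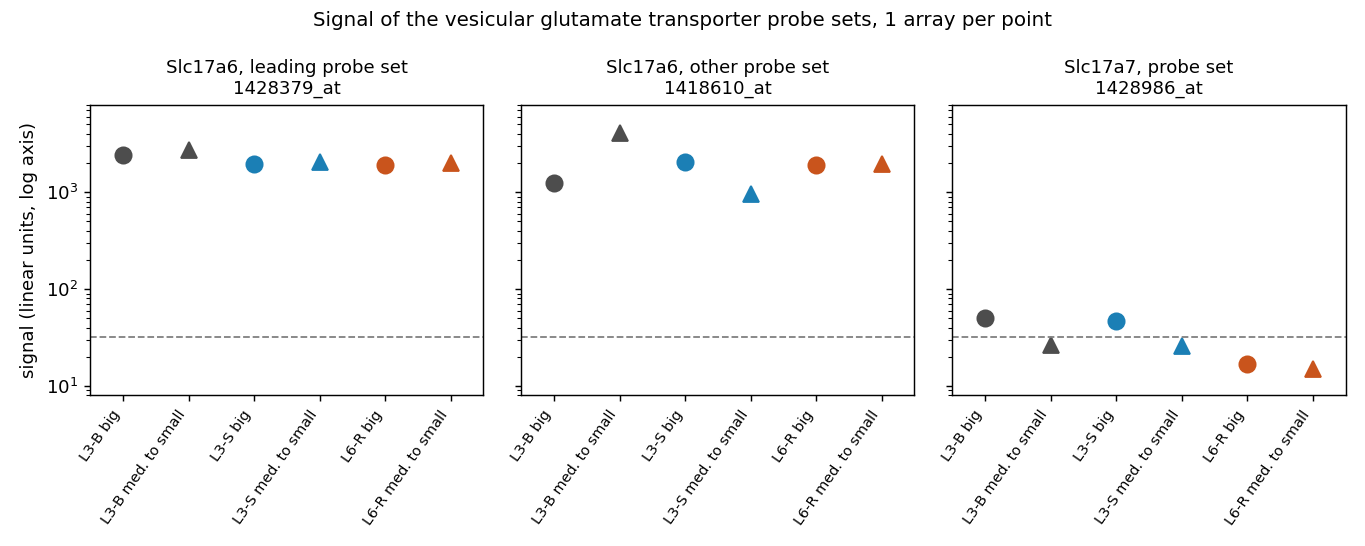
Signal (linear units on a log axis) of each probe set of Slc17a6 and Slc17a7 on the 6 arrays, with circles for big and triangles for medium to small neurons, and a dashed line at 32. The leading Slc17a6 probe set stays between 1887 and 2694, the other one runs from 953 to 4072, and Slc17a7 lies between 15.1 and 50.6. Heights are not comparable between panels, since probe sets differ in binding.

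The other Slc17a6 probe set gave a different picture. Its signals, big then medium to small, were 1249 and 4072 (L3-B), 2029 and 953 (L3-S) and 1914 and 1943 (L6-R). L3-B held the highest array and the next to lowest one, and its range covered that of L6-R. The gap between the 2 Slc17a6 probe sets varied over the arrays by 1.69 log2. Among 389 genes with a pair of probe sets of mean log2 value at least 10, the gap varied that much in 6 genes (1.54%), Slc17a6 included, and the median was 0.597 log2.

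This probe set read lower where the Actb ratio was higher. The ratio was 3.73 in L3-B medium to small, 5.42 in L3-S big, 8.31 in L6-R big, 8.42 in L6-R medium to small, 12 in L3-S medium to small and 13.9 in L3-B big. The array with the lowest ratio had the highest signal (4072), and the arrays with the highest ratios had the lowest (953 and 1249). Over the 6 arrays, Pearson's r between log2 values was -0.922 (exact permutation p = 0.0139, adjusted p = 0.0417 over 3 relations) and Spearman's rho was -0.886 (exact permutation p = 0.0333, adjusted p = 0.0999). Without L3-B medium to small and L3-B big, the arrays farthest from the median ratio, r was -0.817 over 4 arrays. The relation and the sets of bright probe sets were chosen after the values were seen. Of 2479 probe sets with a mean log2 value of at least 10, 16 (0.645%) had an r this low or lower, the Slc17a6 one included. The relation did not pass for the leading probe set (r = -0.266, exact permutation p = 0.632, rho = 0.0857, r = 0.527 without the same arrays) or for Slc17a7 (r = 0.098, exact permutation p = 0.818, rho = 0.0857, r = -0.593 without them). The part that RNA completeness had in this pattern was not tested.

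**Figure D2:**
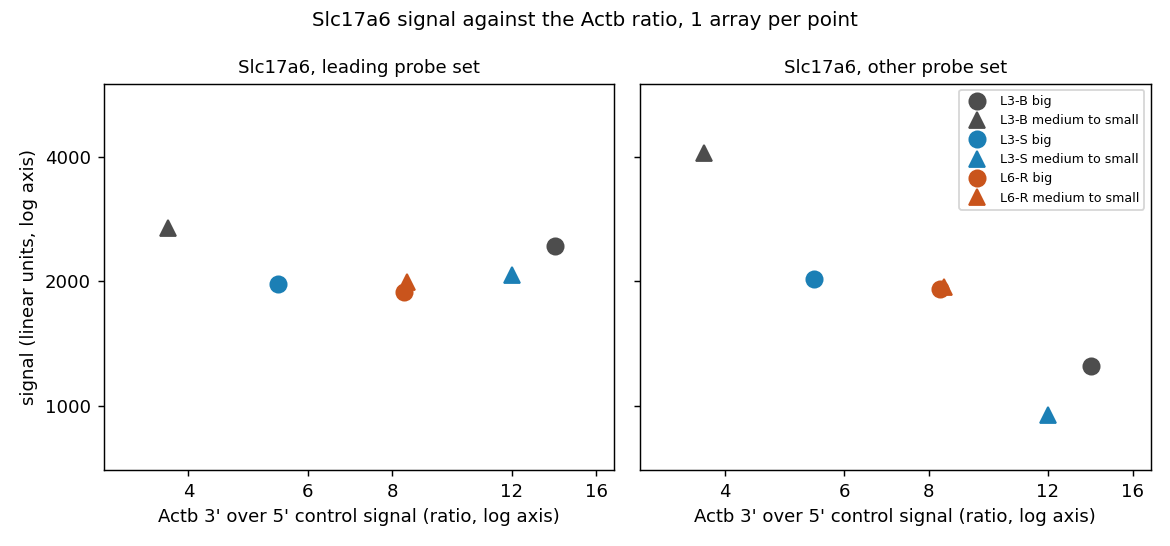
Signal of the leading (left) and the other (right) Slc17a6 probe set against the ratio of 3' to 5' Actb control signal, both on log axes, 1 point per array. On the right the points descend from 4072 at a ratio of 3.73 to 953 and 1249 at ratios of 12 and 13.9, while on the left they stay between 1887 and 2694.

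Slc17a7 was dim in every pool. Its signals, big then medium to small, were 50.6 and 26.5 (L3-B), 46.5 and 25.7 (L3-S) and 16.8 and 15.1 (L6-R). The L6-R arrays were the lowest, and both were under 32. Of the 6 arrays only the big L3-B and big L3-S arrays exceeded 32. Within each code the big array stood above the medium to small one, by 0.50 log2 in L3-B, 0.44 in L3-S and 0.05 in L6-R. The step from the big L3-B and L3-S arrays down to the next array, 0.423 log2, exceeded the residual standard deviation of 0.232, likewise moderated over genes. The step from L3-S medium to small down to L6-R big, 0.242 log2, slightly exceeded it as well. The other steps in the order were smaller. Slc17a7 lay under the filter on dim genes (which kept the brighter 50% of 18193 genes) and was kept in the fit as a member, whereas Slc17a6 passed. Differences between signals this close to background are shrunk by the added 32 and cannot be resolved well.

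The tests between title codes and size classes called neither measured member. One additive model of code and size class was fitted with limma to all 6 arrays, and p-values were adjusted over all 9098 tested genes, called at 0.05. Differences are of log2(signal + 32) with the standard error (SE) of that fit and a 95% confidence interval, unless another fit is named. No combination of code and size class has a second array, so spread between replicate pools was not measured. Each p-value sets a difference against departures from additive code and size effects, moderated over genes (2 residual and 6.47 prior degrees of freedom). That spread may be technical, since nothing in the labels says that pools came from different animals. In whole pools, fewer neurons of a class and less RNA per neuron cannot be told apart.

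Between the DiI codes, L6-R minus L3-S, 0 of 2 members were called against 3.18% of all genes (289 genes, but 655 without either L3-B array and 139 without either L6-R array). Slc17a6 differed by -0.06 ± 0.22 (SE, n = 2 arrays per code, interval -0.55 to 0.44, limma adjusted p = 0.931). The medium to small and the big pair gave nearly equal differences, -0.061 and -0.059. In a separate fit of all 45037 probe sets, the other Slc17a6 one stood at 0.46 ± 0.61 (interval -1.04 to 1.96). The sign for this gene thus depended on the probe set, and the mean of both gave 0.20. Slc17a7 differed by -0.49 ± 0.23 (n = 2 arrays per code, interval -1.02 to 0.04, limma adjusted p = 0.357). It was lower in L6-R in both pairs, by -0.69 in the big and -0.29 in the medium to small arrays. With a pseudocount of 1 in place of 32 that difference was -1.07 (adjusted p = 0.155) and with one 4 times as large it was -0.19 (adjusted p = 0.631).

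Against the control code, L3-S minus L3-B, 0 of 2 members were called against 1.02% of all genes (93 genes, but 202 without L3-B big, 193 without L3-S big, 171 without either L6-R array and 61 without L3-S medium to small). Slc17a6 differed by -0.34 ± 0.22 (n = 2 arrays per code, interval -0.83 to 0.16, limma adjusted p = 0.717), and Slc17a7 by -0.05 ± 0.23 (interval -0.58 to 0.48, limma adjusted p = 0.991). The Slc17a7 difference turned positive without L3-B big (0.078) and without L3-S medium to small (0.039).

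For L6-R minus L3-B, a comparison that shares the L3-B arrays, 0 of 2 members were called against 7.51% of all genes (683 genes, but 359 without L6-R big and 355 without L6-R medium to small). Slc17a6 differed by -0.40 ± 0.22 (n = 2 arrays per code, interval -0.89 to 0.10, limma adjusted p = 0.336). Slc17a7 differed by -0.54 ± 0.23 (interval -1.07 to -0.0053, unadjusted p = 0.0482, limma adjusted p = 0.227). It was lower in L6-R in the big pair (-0.76) and in the medium to small pair (-0.31). With a pseudocount of 1 the difference was -1.15 (adjusted p = 0.0741) and with one 4 times as large it was -0.21 (adjusted p = 0.513).

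Between size classes 0 of 2 members were called, and also 0 of 9098 genes (0%), with 320 genes at an unadjusted p under 0.05. Slc17a7 was higher in big neurons by 0.33 ± 0.19 (n = 3 arrays per class, interval -0.10 to 0.76, limma adjusted p = 0.998), and higher in 3 of 3 pairs. The difference was 0.63 with a pseudocount of 1 and 0.14 with one 4 times as large as 32. By its leading probe set Slc17a6 differed by -0.10 ± 0.18 (interval -0.50 to 0.31, limma adjusted p = 0.998), lower in big neurons in 3 of 3 pairs. By the other probe set big minus medium to small was -1.68 in L3-B, 1.07 in L3-S and -0.02 in L6-R.

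**Figure D3:**
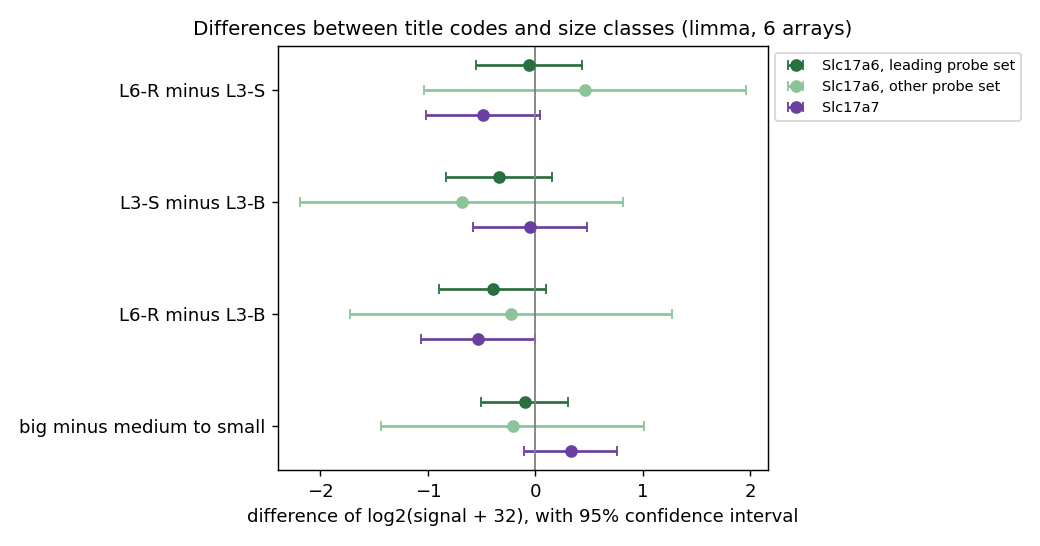
Differences of log2(signal + 32) for Slc17a6 (leading and other probe set) and Slc17a7 in the 4 comparisons, with points for the estimate and bars for the 95% confidence interval of the limma fit to 6 arrays. The other Slc17a6 probe set is from a fit of every probe set, the rest from the fit of the tested genes. Each interval includes 0 except that of Slc17a7 in L6-R minus L3-B, which ends at -0.0053, and those of the other Slc17a6 probe set are the widest.

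The second Slc17a6 probe set had a far wider error than the leading one (SE 0.605 against 0.174 for a difference between codes, with every probe set tested). With the Actb ratio as a covariate, an alternative chosen for this probe set after seeing the data, its SE was 0.190. That drop restates the correlation with the Actb ratio for which the covariate was chosen. Its differences were then 0.51 for L6-R minus L3-S, -0.54 for L3-S minus L3-B, -0.03 for L6-R minus L3-B and 0.01 between size classes. None passed (adjusted p 0.372 to 0.998). That fit leaves 1 residual degree of freedom.

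The balance of Slc17a7 against Slc17a6 within an array, as a log2 deviation from its mean over the 6 arrays, depended on the Slc17a6 probe set. Against the leading probe set it was 0.27 and -0.37 for L3-B (big, then medium to small), 0.50 and -0.02 for L3-S, and -0.13 and -0.25 for L6-R, higher in the big array of every code. Against the other probe set it was 0.98 and -1.20 for L3-B, 0.22 and 0.84 for L3-S, and -0.38 and -0.46 for L6-R, so that the order of the size classes turned in L3-S. Since Slc17a7 was under 32 on 4 of the 6 arrays, these balances are not precise there.

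Some genes of the afferent classes that these transporters mark passed the test between the codes. Of 16 tested markers of myelinated mechanoreceptors and spindle afferents, 5 fell and 0 rose in L6-R minus L3-S (list median -0.78), against 1.91% of all genes lower and 1.26% higher. In L6-R minus L3-B 7 fell and 1 rose (median -0.59, against 2.85% and 4.66% of all genes), and in L3-S minus L3-B 0 fell and 2 rose (median -0.18, against 0.0989% and 0.923%). Parvalbumin (Pvalb), the calcium-binding protein of spindle afferents, read 723 and 756 (L3-B), 2084 and 3413 (L3-S) and 69.1 and 31.9 (L6-R) (big, then medium to small). It rose by 1.81 ± 0.32 in L3-S minus L3-B (limma adjusted p = 0.0435), where the Slc17a7 difference was -0.05. With every probe set tested, 0 of 82 genes of the 7 lists described here were called in L3-S minus L3-B (9 of 65 otherwise). Of the same 82, 2 were called in L6-R minus L3-S (13 of 65 otherwise) and 12 in L6-R minus L3-B (22 of 65 otherwise). Of all 45037 probe sets, that setting called 0 in L3-S minus L3-B, 24 in L6-R minus L3-S and 278 in L6-R minus L3-B. The 0 of 82 thus follows from the setting and says nothing particular about the lists. In L6-R, where Slc17a7 was lowest, Pvalb fell by 3.26 ± 0.32 against L3-B (limma adjusted p = 0.000799). Ntrk3, the neurotrophin-3 receptor of such afferents, read 2243 and 2087 (L3-B), 1155 and 791 (L3-S) and 505 and 448 (L6-R). It fell by 2.11 ± 0.23 in L6-R minus L3-B (limma adjusted p = 0.00134) and differed by -1.15 in L3-S minus L3-B (limma adjusted p = 0.0663). Ntrk2 of the same list was the 1 that rose in L6-R minus L3-B, by 1.64 (limma adjusted p = 0.0118). Its signals were 433 and 191 (L3-B), 936 and 655 (L3-S) and 950 and 993 (L6-R). Between size classes Pvalb differed by -0.04 and Ntrk3 by 0.26, neither called.

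In peptidergic nociceptors Slc17a6 is the usual transporter. Of 10 tested markers of that class, 5 rose and 1 fell in L6-R minus L3-S, 3 rose and 0 fell in L3-S minus L3-B, and 7 rose and 0 fell in L6-R minus L3-B. Of all genes 1.26%, 0.923% and 4.66% were higher and 1.91%, 0.0989% and 2.85% lower in these comparisons. The medians were 1.32, 0.95 and 2.36, beside medians of all genes of -0.01, 0.03 and 0.02. Tac1, the substance P precursor, read 167 and 74.8 (L3-B), 1758 and 1429 (L3-S) and 5435 and 4090 (L6-R). It rose by 5.02 ± 0.24 in L6-R minus L3-B (limma adjusted p = 6.91e-05), where the leading Slc17a6 probe set stood at -0.40. Kit was the 1 that fell in L6-R minus L3-S (-1.42, limma adjusted p = 0.0203), and it rose in L3-S minus L3-B (1.88, limma adjusted p = 0.0144). The summed signal of the 10 markers differed less than Tac1. It was 6104 and 3544 (L3-B), 6745 and 7294 (L3-S) and 12320 and 10280 (L6-R). Markers of non-peptidergic, itch and cold neurons had 1, 2 and 3 of 7 members higher and 0 lower in these 3 comparisons, among them Plxnc1, a semaphorin receptor, by 3.21 in L6-R minus L3-B (limma adjusted p = 0.000218). These lists were chosen with earlier results of these data known and their counts are descriptions. The filter used the mean over all 6 arrays, so genes bright only in DiI arrays could pass it. In both L3-B arrays (big, then medium to small) Trpa1 (14.98 and 1.519), Trpv1 (18.68 and 19.61), Gal (28.64 and 18.93), Adcyap1 (2.26 and 19.27) and Runx1 (16.65 and 11.35) lay under 32. For such genes, a rise over L3-B is partly tied to having been tested. The same limit applies in L6-R minus L3-S to called genes that were bright chiefly in L6-R. In L3-S (big, then medium to small) Trpa1 read 56.06 and 30.21, Trpv1 108.4 and 56.11, and Gal 46.01 and 30.7. Osmr of the non-peptidergic list read 65.81 and 33.32 there. In L6-R they read 600.5 and 273.6, 615.9 and 391.9, 215.9 and 158.2, and 767.2 and 289.2, in that order. Of 12 non-peptidergic, itch and cold markers with a probe set, 7 were tested.

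The unmyelinated low-threshold mechanoreceptors in which Slc17a8 is known could be followed only through other markers. Of 8 tested, 0 rose and 1 fell in L6-R minus L3-S (1.26% and 1.91% of all genes), 2 rose and 0 fell in L3-S minus L3-B (0.923% and 0.0989%), and 2 rose and 1 fell in L6-R minus L3-B (4.66% and 2.85%). In that last comparison 4 members were above 0 and 4 below. Kcnd3, a voltage-gated potassium channel, read 1365 and 1556 (L3-B), 1473 and 1541 (L3-S) and 269 and 356 (L6-R). It fell by 2.17 in L6-R minus L3-S and by 2.12 in L6-R minus L3-B (limma adjusted p = 0.00208 and 0.00112). Tafa4, a secreted protein of these neurons, stood at -1.14 and -1.34 in the same comparisons (limma adjusted p = 0.137 and 0.0535). Zfp521, a zinc finger protein, rose by 1.83 in L3-S minus L3-B and by 1.69 in L6-R minus L3-B (limma adjusted p = 0.024 and 0.00902). Cacna1h was the other that rose, by 1.37 and 1.70 in these comparisons (limma adjusted p = 0.045 and 0.00452). Its L3-B signals were low. It read 53.4 and 30.8 (L3-B), 168 and 149 (L3-S) and 189 and 225 (L6-R). Th, the tyrosine hydroxylase that marks these neurons in mouse, read 41.6 and 30.8 (L3-B), 76.0 and 368 (L3-S) and 155 and 165 (L6-R). Its highest array was L3-S medium to small, and its differences of 1.61 and 1.50 from L3-B did not pass (limma adjusted p = 0.185 and 0.0895).

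**Figure D4:**
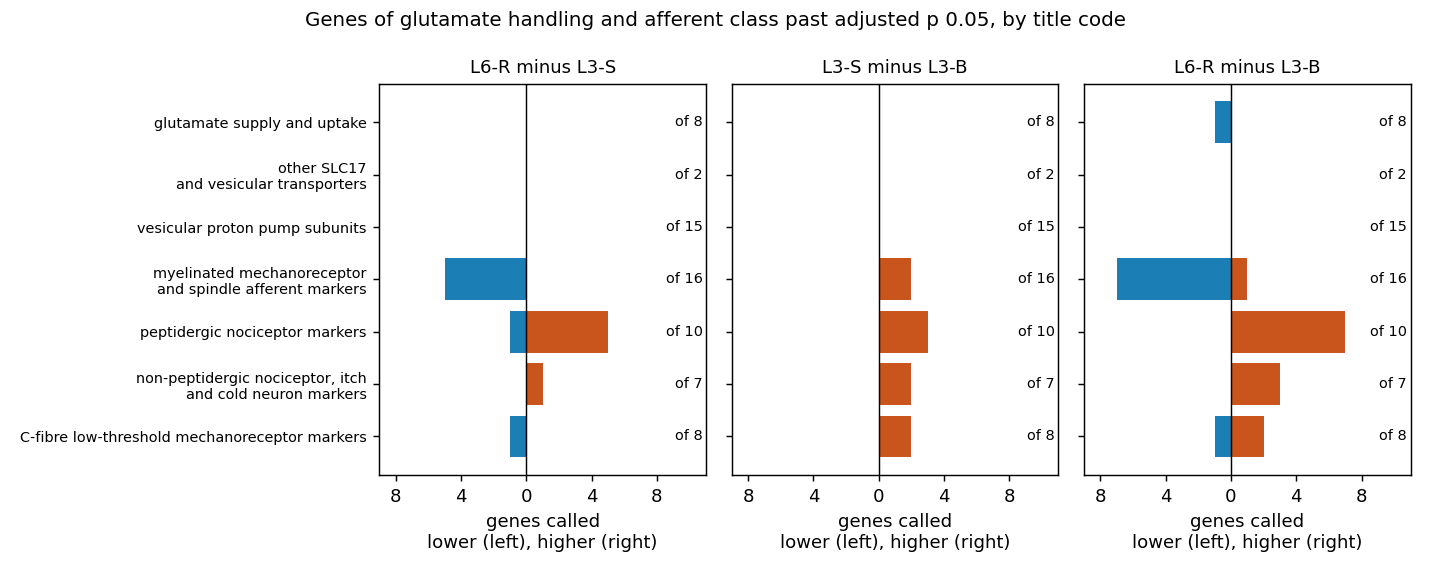
Number of genes called lower (bars to the left) or higher (bars to the right) at a limma adjusted p under 0.05 in 7 lists, with the number tested at the right edge, for the 3 comparisons of title codes. Peptidergic markers are called higher in 7 of 10 and myelinated markers lower in 7 of 16 in L6-R minus L3-B, while 0 of 15 vesicular proton pump subunits are called in any panel.

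Among genes that supply glutamate or power the filling of vesicles, 1 passed the test in L6-R minus L3-B, where 2.85% of all genes were lower and 4.66% higher, so the count is near that of genes at large. Of 15 tested subunits and accessory proteins of the vesicular proton pump, 0 were called in any comparison, with medians of -0.16 in L6-R minus L3-S, -0.15 in L3-S minus L3-B, -0.28 in L6-R minus L3-B and 0.10 between size classes. The smallest p among them was that of Atp6v0b, a membrane subunit, in L6-R minus L3-B (-0.72, limma adjusted p = 0.0953). In that comparison 13 of 15 subunits were below 0. Of 8 tested genes of glutamate supply and uptake 1 was called. Slc1a1, a plasma membrane carrier that takes up glutamate, read 157 and 124 (L3-B), 109 and 132 (L3-S) and 59.8 and 45.6 (L6-R). It fell by 1.02 ± 0.24 in L6-R minus L3-B (limma adjusted p = 0.0366) and differed by -0.85 in L6-R minus L3-S (limma adjusted p = 0.108). Its L6-R arrays were the lowest. Slc1a4, a carrier of neutral amino acids of the same family, stood at 0.98 in L6-R minus L3-S (limma adjusted p = 0.0953).

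Other transporters that fill vesicles were mostly dim. Of 10 with a probe set, 5 had no array above 32 and 2 were tested. The following 3, which were not tested, were named after their values were seen. Slc32a1, which loads GABA and glycine in central inhibitory neurons, reached 26.5 at most. Slc18a2, the monoamine carrier, reached 31.7 at most, and Slc17a9, the nucleotide carrier, 42.2 in L3-S medium to small alone. Slc17a5, a lysosomal sialic acid carrier of the same family, read 235 and 189 (L3-B), 181 and 205 (L3-S) and 274 and 176 (L6-R), with no comparison called.

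Of 12 tested markers of satellite glia and Schwann cells 5 rose in L6-R minus L3-B, 1 in L3-S minus L3-B and 0 in L6-R minus L3-S. In each of these comparisons 0 were lower. Of all genes 4.66%, 0.923% and 1.26% were higher and 2.85%, 0.0989% and 1.91% lower. Their summed signal over 12 genes was 13700 and 12250 (L3-B), 14570 and 18270 (L3-S) and 16810 and 22840 (L6-R). Of 10 markers of connective tissue and vessels with a probe set, 3 passed the filter and were tested. Of these 3 rose in L6-R minus L3-B, 1 in L3-S minus L3-B and 0 in L6-R minus L3-S, with 0 lower. The 1 called in L3-S minus L3-B was Rgs5, a pericyte gene. It rose by 3.32 in L3-S minus L3-B and by 1.73 in L6-R minus L3-B (limma adjusted p = 0.00935 and 0.0314). The summed signal of the 10 listed genes was 448 and 297 (L3-B), 1381 and 1564 (L3-S) and 1048 and 1860 (L6-R). That of 9 blood and immune genes was 755 in L6-R medium to small and 139 to 248 in the other arrays. The part of these cells in the member values was not tested.

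By Pearson's r over the 6 arrays, the genes most like each member were read from 2446 tested genes whose range was at least 1 log2. Each member was taken by its leading probe set, and the other Slc17a6 probe set was not compared. Slc17a7 exceeded 32 on only 2 of the 6 arrays. For Slc17a6 these were Tmem181a (0.981), Ptgir, the prostacyclin receptor (0.976), Syne4 (0.973), Lrrtm3 (0.969) and Fam13c (0.964). All had their highest signals in the L3-B arrays, for example 745 and 851 for Ptgir against 377 to 416 in the DiI arrays. Their ranges exceeded the 0.51 log2 of Slc17a6 by the choice of genes. For Slc17a7 these were Spock2, an extracellular proteoglycan (0.979), Ing3 (0.968), Zbtb16, a transcriptional repressor (0.960), Apol8 (0.953) and Tab3 (0.944). Spock2 read 1583 and 870 (L3-B), 1420 and 989 (L3-S) and 757 and 785 (L6-R), with the big L3-B and L3-S arrays highest. For both members these genes were picked by likeness over the same arrays. That they share the member's highest arrays follows from the choice. Of the genes compared, 32 had an r above 0.9 with Slc17a6 and 19 with Slc17a7, and the arrays share the layout of code and size.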

How the data were processed

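The series matrix deposited by the authors gives linear signal intensity for 45037 probe sets and 64 control probe sets on 6 arrays. How signals were summarised and scaled is not given in the sources used here, labels and header included. Values were used as deposited and transformed as log2(signal + 32). Genes were named from the platform annotation (34945 probe sets with 1 symbol, 932 with several, 9160 with none); a current gene table (GRCm38.p6) changed 0 symbols. Per gene the probe set with the highest mean led, and the upper 50% of 18193 genes (mean log2 of at least 6.41) plus Slc17a7 were tested. R 4.3.3 with limma 3.58.1 fitted code and size class additively (lmFit, eBayes, 2 residual and 6.47 prior degrees of freedom), two-sided, with Benjamini-Hochberg adjustment. The fit was tested on simulated data. The number of arrays limits the precision.

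The members and lists were chosen with earlier results of these data known. Named genes were the members, up to 3 genes per list and comparison with the smallest unadjusted p, and the 5 most correlated genes per member; 3 untested vesicular transporters were added after their values were seen. Alternatives were a pseudocount of 1 or one 4 times as large, quantile normalization, no filter, an upper 25% filter, the mean of probe sets, every probe set tested, a variance trend, array weights, the Actb ratio as covariate, fewer codes and leaving out each array.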

Additional observations from a re-analysis of the deposited data

Results flagged for a closer look

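The Slc17a6 probe set that does not lead gave differences in opposite directions in pools that share a contrast, by at least 0.5 log2 each way. In L3-S minus L3-B it differed by -2.06 in the medium to small arrays and by 0.69 in the big arrays, a gap of -2.75 log2. In L6-R minus L3-B it differed by -1.06 and 0.60 in the same classes, a gap of -1.66. Between size classes (big minus medium to small) it differed by -1.68 in L3-B and by 1.07 in L3-S, the same gap of -2.75, since it rests on the same 4 arrays. Each side is 1 pair of arrays, so these differences were not tested. The Actb ratios of those arrays were 13.9 and 3.73 (L3-B, big, then medium to small), 5.42 and 12 (L3-S) and 8.31 and 8.42 (L6-R).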

How the results depend on the processing

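The measured members were called in 0 comparisons under the main settings and under the alternatives run. Directions held except for Slc17a6 in L6-R minus L3-S, which was 0.20 with the mean of probe sets and 0.46 with the other probe set (an alternative chosen after seeing the data), and for Slc17a7 in L3-S minus L3-B, which ran from -0.17 to 0.078 with 1 array left out and was 0.078 without L3-B big and 0.039 without L3-S medium to small. Between size classes the other Slc17a6 probe set gave -0.21, and 0.01 with the Actb ratio as covariate (added after seeing the data), against -0.10 for the leading one, so that direction turned too. The cause was not tested. Of the 65 tested genes of the 7 lists, 13 were called in L6-R minus L3-S, 9 in L3-S minus L3-B, 22 in L6-R minus L3-B and 0 between size classes. In the same order of codes, counts were 8 and 4 of 82 (first 2 comparisons) with no filter and 5, 3 and 10 of 48 in the upper 25% of genes. They were 2, 0 and 12 of 82 with every probe set tested, and 2 and 14 of 65 (last 2) with the mean of probe sets. With the Actb ratio as covariate they were 26 and 18 of 65 (first 2), and with array weights 5 of 65 in L3-S minus L3-B. With 1 array left out the L3-S minus L3-B count ran from 6 to 14, the latter without L3-S big. Over all genes, calls ran from 24 (every probe set tested) to 995 (Actb ratio as covariate) in L6-R minus L3-S, from 0 to 512 in L3-S minus L3-B and from 278 to 1590 in L6-R minus L3-B under the same 2 settings, and from 0 to 2 between size classes. Fewer or more features tested change the adjustment. Signals near background limit Slc17a7.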
